A study of Mus musculus with 6 samples.

Results

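The 33 proximal tubule marker genes described here were chosen by name, from genes known to mark the first segment of the kidney tubule, and all 33 were found by symbol among the 36889 gene identifiers of the deposited tables. The tables come from RNA sequencing of mouse podocytes, the epithelial cells that carry the slit diaphragm of the kidney filter. Polyadenylated RNA was sequenced in 3 libraries of CD2BP2 knockout podocytes (KO) and in 3 libraries of wildtype podocytes (WT control), all 6 on a C57BL/6 background. CD2BP2, which carries a GYF domain, belongs to the U5 particle of the spliceosome. The knockout allele was made by placing loxP sites, at which Cre recombinase cuts, in the Cd2bp2 gene. The labels do not say which promoter drove Cre in podocytes, at what age kidneys were taken or how podocytes were isolated. Their treatment text instead describes MxCre-positive floxed mice and littermate controls of 6 to 10 weeks, all given 300 μg of poly(I:C), from which bone marrow macrophages were grown.

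The proximal tubule takes back most of what the glomerulus filters. Sodium-coupled carriers of the brush border bring phosphate, glucose, amino acids and lactate into the cell, organic anion transporters secrete drugs and metabolites and take back urate, and the receptors megalin and cubilin take up filtered protein. The cells also make glucose, break down fatty acids and make the arginine and creatine precursors that other tissues use. Podocytes are not known for these functions.

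Total counts over exonic parts, the stretches of exon between annotated exon edges, were 255554573, 214948912 and 233341997 in the KO libraries, and 189168456, 186022084 and 231312370 in the WT libraries. Values below are counts scaled to that total (CPM), with the KO libraries named KO1 to KO3 and the WT libraries WT1 to WT3. Cd2bp2 stood at 49.2, 48.3 and 52.5 CPM in KO, against 59.9, 59.9 and 59.9 CPM in WT (log2 fold change -0.32, edgeR quasi-likelihood adjusted p = 0.0297), so the transcript of the targeted gene was lower in KO but far from absent. The podocyte slit gene Nphs1 was at 2267, 1977 and 1927 CPM in KO, against 2827, 2936 and 2752 CPM in WT (log2 fold change -0.53, edgeR adjusted p = 0.0350). With 1 library left out in turn, Cd2bp2 passed in 1 of 6 fits, without KO3 (edgeR adjusted p 0.0457 to 0.146), and Nphs1 in 0 of 6 (0.0588 to 0.150). Whether each library is from its own animal is not stated in the labels, and the p-values thus speak only to the spread among these 6 samples, which may be technical.

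Most proximal tubule markers stood higher in KO than in WT, but by amounts close to the spread between libraries, and only 3 passed the test over all genes. Summed over the 33 genes, the level was 1897, 2452 and 1639 CPM in KO1, KO2 and KO3, against 1143, 970.3 and 1824 CPM in WT1, WT2 and WT3. KO2 was thus the highest library, and WT3 lay above KO3 and close to KO1, so the sums of the groups overlapped. As a share of all counts this was 0.164% to 0.245% in KO and 0.0970% to 0.182% in WT. In bulk RNA, fewer cells of a type and less RNA per cell cannot be told apart.

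Of the 33 genes, 32 had enough counts to be tested. The exception was Slco1a1, an organic anion transporter of the male mouse kidney, with 1, 0 and 5 counts in the KO libraries and 0 in each WT library. Of the 32, 3 rose and 29 did not pass (edgeR quasi-likelihood test, adjusted p under 0.05 over 19742 genes). The background was 1.62% of all genes tested called higher, 1.76% called lower and 3.37% called in either direction. At an unadjusted p under 0.05, 12 of the 32 were higher, against 11.5% of all genes. The log2 fold change was above 0 in 31 of 32, against 50.9% of all genes, and its median was 0.56, against 0.01 over all genes. These genes share their libraries and move together within them, so the count of fold changes above 0 is not a count of independent observations.

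All KO libraries lay above all WT libraries in 15 of the 32 genes, against 20.9% of all genes tested, and in no gene did all KO libraries lie below. When CPM was computed on TMM effective library sizes, 11 of 32 genes had that order, against 14.1% of all genes. In 17 genes the groups overlapped.

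The KO libraries kept one order over most of the list, while the WT libraries did not. KO2 was the highest of the 6 in 23 of 32 genes, against 26.1% of all genes tested, and the KO libraries ran KO2, KO1, KO3 from high to low in 24 genes, against 21.2% of all genes. Among the WT libraries, WT3 was highest in 17 genes, WT1 in 9 and WT2 in 6, and the order WT3, WT1, WT2 held in 16. With each gene taken as the log2 ratio of its CPM to its mean CPM in WT (0.1 CPM added to both), the median of the list was 0.553, 0.899 and 0.287 in KO1, KO2 and KO3, against -0.0489 in WT1, -0.194 in WT2 and 0.0984 in WT3. The library medians of the groups did not overlap, but the distance between KO2 and KO3 was larger than the distance between KO3 and WT3. Over all genes tested the medians were 0.0457, 0.047 and 0.072 in KO, against 0.00944, -0.0171 and 0.00262 in WT. They did not overlap either, so only the size of the gap sets the list apart. Without KO2 the fold change was smaller in 31 of 32 genes and its median was 0.36. Among the other genes, KO1 was highest in 4 (Slc22a12, Slc5a2, Keg1 and Slc22a30) and WT3 was highest in 5 (Slc17a1, Slc17a3, Napsa, Slc7a13 and Kap).

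**Figure D1:**
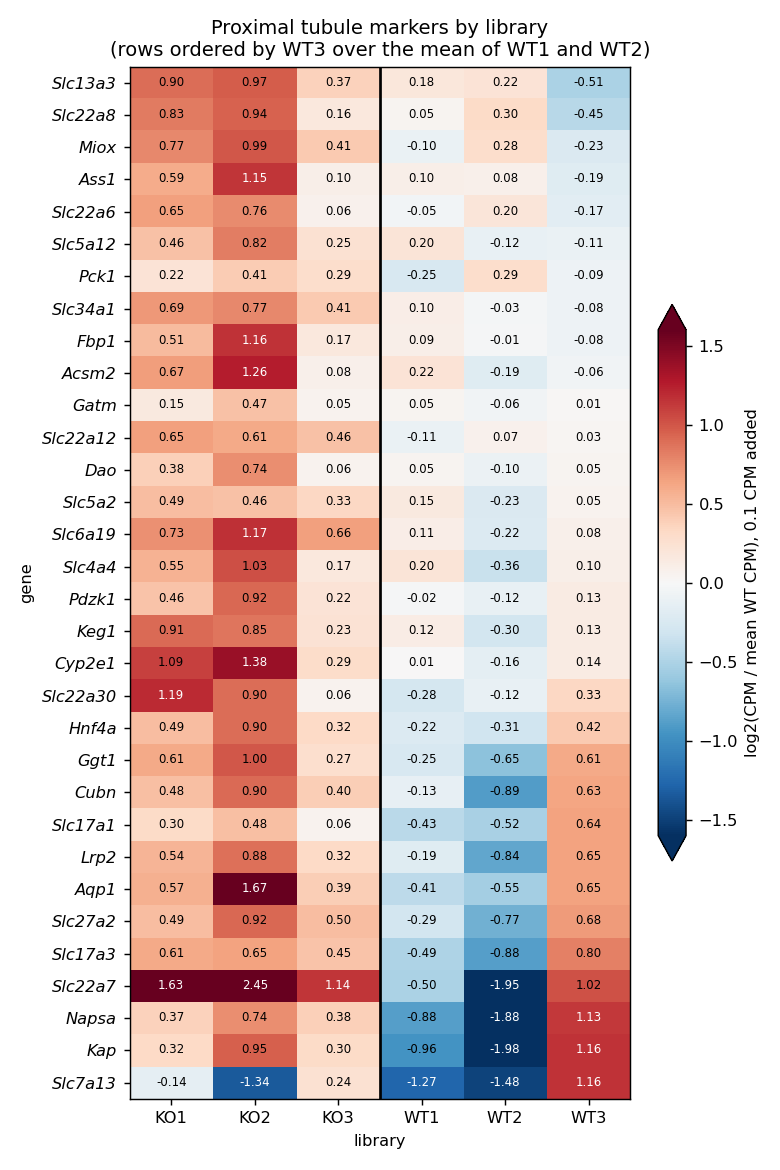
Heatmap of the log2 ratio of CPM to the mean CPM in WT (0.1 CPM added to both) for the 32 tested genes (vertical) in the 3 KO libraries and the 3 WT libraries (horizontal), with genes ordered from a low to a high WT3 and each value printed in its cell. KO2 is the highest of the 6 libraries in 23 genes. In the 11 genes at the foot of the plot WT3 is over 2 times the mean of WT1 and WT2. It is above all KO libraries in 5 of these (Slc17a1, Slc17a3, Napsa, Slc7a13 and Kap).

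Levels per kilobase of exon spanned a wide range. Kap, which encodes the kidney androgen-regulated protein, was highest at 353 CPM per kb (mean of the 6 libraries). The phosphate carrier Slc34a1 followed at 63.6, the aspartic protease Napsa at 57.6, the inositol oxygenase Miox at 50.0 and the fatty acid transporter Slc27a2 at 31.9 CPM per kb. At the low end were the amino acid transporter Slc7a13, at 0.117 CPM per kb, and the transporter Slc22a30, at 0.216 CPM per kb.

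Among the 9 carriers of the list, 2 rose, Slc34a1 and Slc6a19, and the median log2 fold change was 0.51. Slc34a1 encodes NaPi-IIa, the main sodium-phosphate cotransporter of the brush border, and lies on chromosome 13 from 55501009 to 55516056 on the plus strand (NCBIM37). It stood at 248, 262 and 205 CPM in KO, against 165, 151 and 145 CPM in WT. Every KO library was above every WT library, and the means were 238 ± 30.1 CPM in KO and 154 ± 10.5 CPM in WT (SD, n = 3 each). The log2 fold change was 0.57 ± 0.11 (SE, edgeR quasi-likelihood test, adjusted p = 0.0459).

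Slc6a19 encodes B0AT1, the carrier that takes neutral amino acids out of the filtrate, and lies on chromosome 13 from 73817193 to 73842313 on the minus strand. It stood at 22.4, 30.4 and 21.3 CPM in KO, against 14.5, 11.6 and 14.2 CPM in WT. The groups did not overlap, and KO2 stood above the other KO libraries. The log2 fold change was 0.82 ± 0.16 (SE, edgeR adjusted p = 0.0499), just under the threshold of 0.05.

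The third gene that passed was the organic anion transporter Slc22a12, which encodes URAT1, the apical urate exchanger. It lies on chromosome 19 from 6535845 to 6543019 on the minus strand. It stood at 49.9, 48.3 and 43.8 CPM in KO, against 29.4, 33.3 and 32.3 CPM in WT. Here the spread within each group was small, at 3.18 CPM in KO and 2.03 CPM in WT (SD, n = 3 each), and KO2 was not the highest library. The log2 fold change was 0.52 ± 0.08 (SE, edgeR adjusted p = 0.0330).

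With 5 libraries these calls depended on which library was left out. Without KO3, Slc34a1 and Slc22a12 passed (edgeR adjusted p = 0.0306 and 0.0468) and Slc6a19 did not (0.0589). Without KO1, KO2, WT1, WT2 or WT3, the edgeR adjusted p lay between 0.0896 and 0.186 for Slc34a1, between 0.0656 and 0.114 for Slc22a12 and between 0.0871 and 0.192 for Slc6a19. The log2 fold changes moved little, from 0.49 to 0.67 for Slc34a1, from 0.46 to 0.57 for Slc22a12 and from 0.63 to 0.91 for Slc6a19 over the 6 libraries left out in turn. Parts of Slc34a1 overlap Pfn3 and parts of Slc22a12 overlap Nrxn2, each on the opposite strand. On parts that overlap no other gene, the edgeR adjusted p was 0.0491 for Slc34a1, 0.0412 for Slc22a12 and 0.0506 for Slc6a19.

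**Figure D2:**
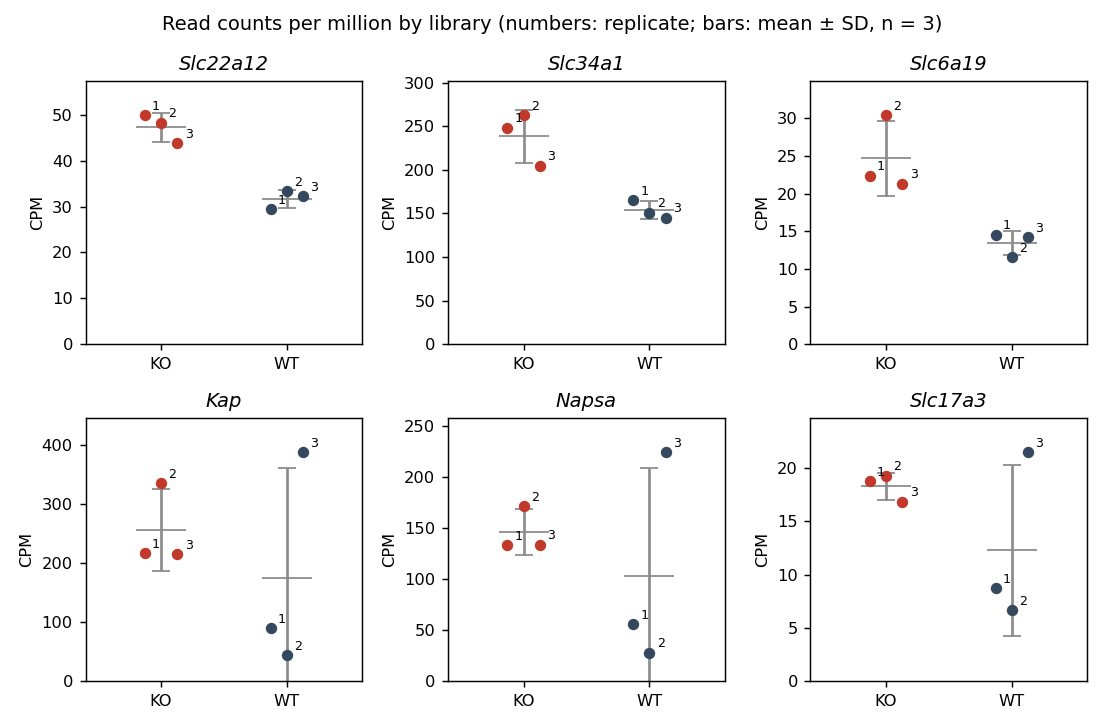
CPM (vertical, from 0) by library in KO and WT for the 3 genes that passed the test (upper panels) and for 3 genes in which WT3 was the highest library (lower panels), with points numbered by replicate and grey marks for the mean and SD (n = 3 each). In the upper panels no WT point reaches a KO point, and in the lower panels WT3 lies above all KO points while WT1 and WT2 lie below them.

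The promoters of these 3 genes are shown because the genes passed the same test and HNF4, encoded by the marker Hnf4a, is known to act on promoters of this segment. The sequences are RefSeq promoters of build GRCm38.p6, each running from 250 bases before to 50 bases after the annotated start site, and the coordinates below are of that build, not of the build of the deposited tables. Capitals would mark the HNF4 letters CAAAGTCCA or their reverse complement TGGACTTTG.
Slc34a1, chr13:55399398-55399697, plus strand: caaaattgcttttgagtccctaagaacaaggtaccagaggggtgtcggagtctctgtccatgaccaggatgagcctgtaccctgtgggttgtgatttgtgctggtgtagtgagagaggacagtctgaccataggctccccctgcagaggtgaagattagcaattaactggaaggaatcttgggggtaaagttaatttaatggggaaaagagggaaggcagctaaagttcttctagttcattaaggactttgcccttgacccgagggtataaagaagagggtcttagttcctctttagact
Slc22a12, chr19:6543021-6543320, minus strand: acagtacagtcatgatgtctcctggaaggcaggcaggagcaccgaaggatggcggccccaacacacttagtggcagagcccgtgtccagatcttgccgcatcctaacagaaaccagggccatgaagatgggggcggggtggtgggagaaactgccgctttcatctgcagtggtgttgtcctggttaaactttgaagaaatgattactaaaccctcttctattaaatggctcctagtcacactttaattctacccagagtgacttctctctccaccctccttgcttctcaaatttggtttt
Slc6a19, chr13:73692587-73692886, minus strand: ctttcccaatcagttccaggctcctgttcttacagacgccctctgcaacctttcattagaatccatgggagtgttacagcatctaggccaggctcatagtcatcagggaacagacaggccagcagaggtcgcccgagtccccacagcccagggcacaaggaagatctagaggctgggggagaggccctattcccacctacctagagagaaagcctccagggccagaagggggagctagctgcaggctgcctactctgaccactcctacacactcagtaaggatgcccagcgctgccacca

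The HNF4 letters were not in any of the 3 windows. Of 32851 promoters of the same length, 0.475% held them on either strand. Of the 33 markers, 28 matched a promoter by symbol, with 38 promoters in all, and the letters were in 1 of these, of Pdzk1. A match or its absence says only whether these letters are in the window.

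The other 7 carriers did not pass the test. The dicarboxylate carrier Slc13a3 stood at 43.2, 45.3 and 30.0 CPM in KO, against 26.2, 26.9 and 16.2 CPM in WT (log2 fold change 0.71, edgeR adjusted p = 0.156). Its groups did not overlap, with KO3 and WT3 the lowest of their groups. The glucose carrier SGLT2, encoded by Slc5a2, stood at 31.3, 30.7 and 28.1 CPM in KO, against 24.8, 18.9 and 23.1 CPM in WT, again with no overlap (log2 fold change 0.37, edgeR adjusted p = 0.112). The lactate carrier Slc5a12 had 15.3 to 22.9 CPM in KO and 11.9 to 14.8 CPM in WT. The sodium bicarbonate cotransporter Slc4a4 of the basolateral side had 36.1 to 65.6 CPM in KO and 24.9 to 36.8 CPM in WT, so that its groups just overlapped. The urate and phosphate transporters Slc17a1 and Slc17a3 and the amino acid transporter Slc7a13 are described with WT3 below.

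Of the other organic anion transporters, 4 were tested and did not pass, and the median log2 fold change of the 5 tested in this family was 0.62. The basolateral transporters OAT1 and OAT3, encoded by the neighbouring genes Slc22a6 and Slc22a8 on chromosome 19, take organic anions from the blood. Slc22a8 stood at 43.2, 46.8 and 27.2 CPM in KO, against 25.2, 29.9 and 17.8 CPM in WT (log2 fold change 0.62, edgeR adjusted p = 0.223). KO3 lay below WT2, so its groups overlapped. Slc22a6 stood at 23.8, 25.6 and 15.8 CPM in KO, against 14.6, 17.3 and 13.4 CPM in WT, and KO3 again lay below WT2.

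Slc22a30, another member of that family, was near the limit of detection, at 1.28, 1.03 and 0.531 CPM in KO, against 0.396, 0.457 and 0.661 CPM in WT (log2 fold change 0.84, edgeR adjusted p = 0.239). WT3 lay above KO3. Slc22a7, which encodes OAT2, had the largest fold change of the list, with 5.50, 9.82 and 3.91 CPM in KO, against 1.18, 0.371 and 3.59 CPM in WT (log2 fold change 1.84 ± 0.78 SE, edgeR adjusted p = 0.226). All KO libraries lay above all WT libraries, but WT3 was close to KO3, and without WT3 the log2 fold change was 2.98.

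The 4 genes of protein uptake, apical scaffold and water transport had log2 fold changes of 0.50 to 0.94 and did not pass. Lrp2, which encodes the receptor megalin, stood at 175, 222 and 151 CPM in KO, against 105, 67.4 and 189 CPM in WT. Cubn, its partner cubilin, stood at 34.3, 46.0 and 32.3 CPM in KO, against 22.5, 13.2 and 38.0 CPM in WT. Both had WT1 and WT2 below all KO libraries and WT3 among them, with log2 fold changes of 0.54 for Lrp2 and 0.55 for Cubn (edgeR adjusted p = 0.421 and 0.416).

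The water channel gene Aqp1 stood at 70.2, 150 and 62.0 CPM in KO, against 35.4, 32.2 and 73.9 CPM in WT. KO2 was far above the other libraries and WT3 lay above KO1 and KO3. Pdzk1, a scaffold that holds brush border carriers, ran from 35.8 to 58.2 CPM in KO and from 28.3 to 33.6 CPM in WT, with no overlap (log2 fold change 0.50, edgeR adjusted p = 0.168).

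The 10 enzyme genes had a median log2 fold change of 0.62, none below 0.17, but their adjusted p-values did not pass. In 7 of them all KO libraries lay above all WT libraries in CPM, against 20.9% of all genes tested. In Gatm, Ass1 and Dao the gap was small. KO3 stood at 71.1, 41.35 and 7.47 CPM in these genes, against 70.7, 41.24 and 7.42 CPM in the highest WT library. When CPM was computed on TMM effective library sizes, the groups of Gatm, Ass1 and Dao overlapped, and the share of all genes was 14.1%. Miox, which opens the ring of inositol, stood at 105, 123 and 82.0 CPM in KO, against 57.3, 74.9 and 52.5 CPM in WT (log2 fold change 0.68, edgeR adjusted p = 0.107). The lowest KO library, KO3, was above the highest WT library, WT2. Keg1, a gene named for its expression in kidney, stood at 48.5, 46.7 and 30.3 CPM in KO, against 28.1, 21.1 and 28.4 CPM in WT (log2 fold change 0.63, edgeR adjusted p = 0.142), with KO3 only just above WT3.

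Cyp2e1, a cytochrome of ethanol and solvent metabolism, had the largest fold change among the enzymes, with 6.57, 8.02 and 3.73 CPM in KO, against 3.05, 2.70 and 3.34 CPM in WT (log2 fold change 0.95, edgeR adjusted p = 0.120). Without KO3 it passed the test (log2 fold change 1.21, edgeR adjusted p = 0.0439). Ass1, the argininosuccinate synthase of arginine synthesis, had 41.3 to 85.8 CPM in KO and 33.8 to 41.2 CPM in WT. Fbp1, of gluconeogenesis, had 19.1 to 37.9 CPM in KO and 16.0 to 18.0 CPM in WT. In all 3 of these genes KO2 was highest and KO3 lay nearest to WT.

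The gluconeogenic gene Pck1 had 61.5 to 70.1 CPM in KO and 44.3 to 64.5 CPM in WT, and the creatine precursor gene Gatm had 71.1 to 94.7 CPM in KO and 65.6 to 70.7 CPM in WT. These were the smallest fold changes of the enzymes, at 0.24 for Pck1 and 0.17 for Gatm on the log2 scale (edgeR adjusted p = 0.369 and 0.391). Acsm2, a medium-chain acyl-CoA synthetase, had 38.4 to 87.3 CPM in KO and 31.9 to 42.5 CPM in WT. Dao, the D-amino acid oxidase, had 7.47 to 12.0 CPM in KO and 6.68 to 7.42 CPM in WT, and Slc27a2, which activates and takes up very long chain fatty acids, had 131 to 176 CPM in KO and 54.5 to 149 CPM in WT.

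The last 4 genes encode a transcription factor, a peptidase, a protease and a secreted protein. Hnf4a, the nuclear receptor that drives much of the proximal tubule program, stood at 18.9, 25.0 and 16.7 CPM in KO, against 11.5, 10.8 and 17.9 CPM in WT (log2 fold change 0.53, edgeR adjusted p = 0.240). WT3 lay above KO3 and below KO1. The brush border peptidase gene Ggt1 stood at 51.6, 67.6 and 40.8 CPM in KO, against 28.4, 21.4 and 51.6 CPM in WT (log2 fold change 0.60, edgeR adjusted p = 0.349), with WT3 level with KO1.

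Kap and Napsa broke most clearly from the order of the libraries among the abundant genes. Kap stood at 217, 336 and 215 CPM in KO, against 89.3, 43.9 and 388 CPM in WT, so that WT3 was the highest of the 6 libraries and WT2 the lowest. Napsa stood at 133, 172 and 133 CPM in KO, against 55.7, 27.8 and 224 CPM in WT, again with WT3 highest, KO2 next and WT2 lowest. Their log2 fold changes were 0.50 for Kap and 0.45 for Napsa (edgeR adjusted p = 0.737 and 0.749), and without WT3 they were 1.88 and 1.74.

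Slc17a1 and Slc17a3, neighbours on chromosome 13 from 23931303 to 23987599, followed the same pattern. Slc17a1 stood at 22.9, 25.9 and 19.3 CPM in KO, against 13.7, 12.9 and 28.9 CPM in WT, and Slc17a3 at 18.8, 19.3 and 16.9 CPM in KO, against 8.71, 6.63 and 21.5 CPM in WT. In both, WT3 was above all KO libraries and the other WT libraries were below them. Without WT3, Slc17a3 was the 1 gene of the list that passed the test (log2 fold change 1.19, edgeR adjusted p = 0.0415), against a log2 fold change of 0.51 and an adjusted p of 0.513 with all 6 libraries.

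Slc7a13, a cystine and aspartate transporter of the late proximal tubule, stood at 0.247, 0.0512 and 0.351 CPM in KO, against 0.0582, 0.0376 and 0.752 CPM in WT. It was the gene whose log2 fold change lay below 0, at -0.46 ± 1.16 (SE, edgeR adjusted p = 0.852), and the sign turned without WT3, to 2.10. KO2, the highest library for most of the list, was the lowest KO library for this gene.

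In all, WT3 was more than 2 times the mean of WT1 and WT2 in 11 of the 32 genes, against 4.51% of all genes tested. These were Slc22a7, Lrp2, Cubn, Slc27a2, Slc7a13, Kap, Slc17a1, Slc17a3, Ggt1, Napsa and Aqp1. Their library medians of the same log2 ratio were 0.491, 0.904 and 0.379 in KO, against -0.428, -0.88 and 0.676 in WT. In the other 21 genes they were 0.652, 0.899 and 0.229 in KO, against 0.0497, -0.1 and 0.0135 in WT, and WT3 was at most 1.5 times the mean of WT1 and WT2 in 19 of them. The lowest WT3 relative to WT1 and WT2 was in Slc13a3 and Slc22a8. The split was made after the values were seen and was given no test.

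Leaving out WT3 raised the fold change in 22 of 32 genes, against 47.5% of all genes, and made it positive in all 32. All KO libraries were then above the remaining WT libraries in 26 of 32 genes (81.2%), against 30.3% of all genes, and in 15 with WT3, where the share of all genes was 20.9%. The median log2 fold change of the 11 genes was 1.19 without WT3 and 0.54 with it, while that of the other 21 was 0.53 without WT3 and 0.57 with it. The 11 genes were picked for a high WT3, so their larger rise without WT3 follows from that choice and is not a separate result. WT3 also had the highest level of the smooth muscle genes Myh11 and Acta2. Both were picked after their values were seen, from a list of 7 mesangial and smooth muscle genes. In that list WT3 was the highest WT library in 5 genes and the lowest in Pdgfrb and Itga8. Myh11 stood at 59.8, 67.4 and 57.3 CPM in KO, against 40.9, 37.0 and 135 CPM in WT, and Acta2 at 79.3, 100.3 and 98.1 CPM in KO, against 71.8, 57.7 and 143 CPM in WT. Their part in the pattern was not tested.

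**Figure D3:**
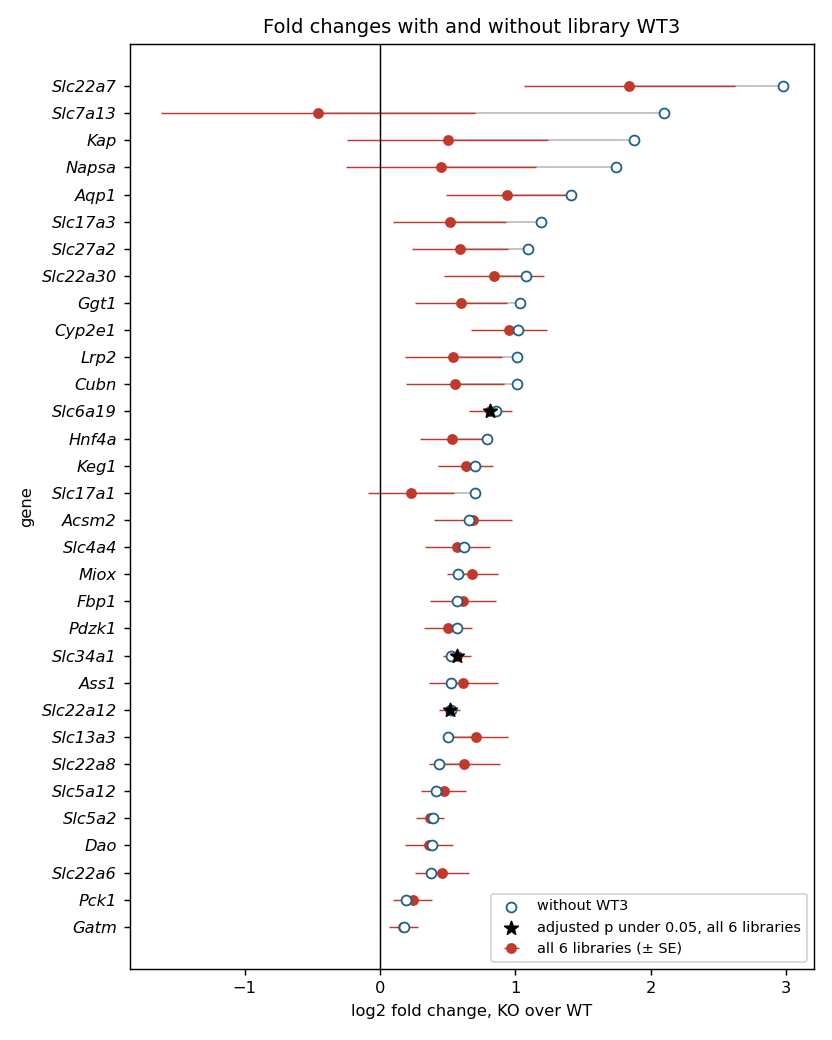
Log2 fold change, KO over WT (horizontal), of the 32 tested genes (vertical) with all 6 libraries (filled points, bars ± SE) and without WT3 (open points), ordered by the value without WT3, with stars for the 3 genes that passed the test. Slc7a13, Kap and Napsa move from -0.46, 0.50 and 0.45 to 2.10, 1.88 and 1.74, while the starred genes hardly move.

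The reads of the markers were spread over their exons, and the differences held along the genes. Of 466 exonic parts of these genes with a mean of at least 100 counts, 465 had a higher mean CPM in KO than in WT, 370 were highest in KO2 and 46 in WT3. All KO libraries lay above all WT libraries in 15 of 15 such parts of Slc34a1, 13 of 13 of Slc22a12 and 15 of 15 of Slc6a19. WT3 was the highest library in 4 of 4 parts of Kap and 9 of 10 of Napsa. Parts of a gene come from the same libraries and are not replicates.

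Exon usage, the share of a gene's reads in each part, is a second readout of the same tables, and the title of the study names alternative splicing. Of 32 markers, 0 passed (diffSpliceDGE in edgeR, Simes adjusted p under 0.05), against a background of 0.383% of the 15145 genes tested. At an unadjusted Simes p under 0.05 the count was also 0, against 2.22% of all genes tested, so fewer than 1 of 32 would carry such a p at the background rate. The test with limma-voom diffSplice called 0 of 32 as well. The smallest p among 627 parts was 0.0929, in Slc5a2, while 1.16% of all 236061 parts had an unadjusted p under 0.05. A shift in exon usage of these genes was thus not detectable in these libraries.

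Beyond the 33 genes, a list of 91 other genes of the proximal tubule was read in the same fit, and 1 rose and 2 fell. These counts were near the shares of all genes tested, 1.62% called higher and 1.76% called lower. The log2 fold change was above 0 in 80 of 91 (background 50.9% of all genes), with a median of 0.38. All KO libraries were above all WT libraries in 33 and below in 3 (background 20.9% and 8.96% of all genes). These counts are in CPM on total counts. On TMM effective library sizes the shares of all genes were 14.1% above and 14.8% below. KO2 was the highest library in 59 of the 91, against 26.1% of all genes tested. WT3 was more than 2 times the mean of WT1 and WT2 in 14, against 4.51% of all genes tested. Among them were the meprin subunits Mep1a and Mep1b, the amino acid carriers Slc6a18 and Slc3a1 and the ascorbate carrier Slc23a1. Mep1a stood at 41.1, 64.4 and 49.0 CPM in KO, against 24.0, 15.7 and 74.3 CPM in WT, with WT3 highest and WT2 lowest, as in Kap. In contrast Akr1c21, an aldo-keto reductase, was lowest in WT3, with 23.9, 34.0 and 19.6 CPM in KO, against 13.8, 14.7 and 4.28 CPM in WT.

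The gene that rose was Dnase1, the secreted deoxyribonuclease, at 57.2, 58.0 and 58.3 CPM in KO, against 30.1, 35.5 and 40.0 CPM in WT (log2 fold change 0.65, edgeR adjusted p = 0.0338). Its groups did not overlap, but on its longest exonic part alone the log2 fold change was 0.23 and the adjusted p 0.676, and with 5 libraries it passed only without WT3 (edgeR adjusted p = 0.0407). The genes that fell were Dpp4, a peptidase of the brush border that is also present on podocytes, and the carnitine carrier Slc22a5. Dpp4 stood at 1062, 1012 and 1009 CPM in KO, against 1643, 1617 and 1494 CPM in WT (log2 fold change -0.69, edgeR adjusted p = 0.0108). It missed the threshold without WT1 (0.0531) or WT2 (0.0719). Slc22a5 stood at 50.6, 48.5 and 48.5 CPM in KO, against 55.3, 55.8 and 56.1 CPM in WT (log2 fold change -0.24, edgeR adjusted p = 0.0453), and missed the threshold whichever library was left out (edgeR adjusted p 0.0793 to 0.195). In both genes every KO library was below every WT library.

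Per kilobase, the aminopeptidase Enpep stood at 606, the secreted glutathione peroxidase Gpx3 at 339.5, Dpp4 at 207 and the cytochrome Cyp4b1 at 188 CPM per kb, among the highest of the 91. Enpep ran from 2555 to 2969 CPM in KO and from 2743 to 3039 CPM in WT, and its level per kilobase was above that of every gene of the 33. Gpx3 stood at 671, 1006 and 601 CPM in KO, against 565, 443 and 408 CPM in WT, in the order of the 33 genes within KO (log2 fold change 0.62, edgeR adjusted p = 0.163). Cyp4b1 went the other way, at 412, 415 and 404 CPM in KO, against 447, 454 and 443 CPM in WT. Its log2 fold change was -0.19 (edgeR adjusted p = 0.0788), and every KO library was below every WT library. Enpep and Dpp4 are made by podocytes as well.

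The other genes described from this list did not pass the test. Lrpap1, the chaperone of megalin, had 168 to 184 CPM in KO and 167 to 172 CPM in WT, and Slc9a3r1, the scaffold NHERF1, had 75.3 to 79.1 CPM in KO and 64.4 to 74.5 CPM in WT. The amino acid carrier Slc7a8 had 65.9 to 78.9 CPM in KO and 75.1 to 89.96 CPM in WT.

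Markers of later tubule segments moved with the same libraries. The 18 genes of the loop of Henle, distal tubule and collecting duct summed to 564, 1517 and 287 CPM in KO, against 346, 182 and 272 CPM in WT. KO2 was the highest library in 18 of 18, against 26.1% of all genes tested. Their median log2 fold change was 1.63, and 1 of 18 rose (against 1.62% of all genes tested), the vasopressin receptor gene Avpr2. All 13 parts of Avpr2 overlap another gene, and its call was lost whichever library was left out (edgeR adjusted p 0.0511 to 0.195). Umod, the uromodulin gene of the thick ascending limb, stood at 224, 604 and 90.8 CPM in KO, against 128, 79.8 and 108 CPM in WT. KO2 was thus the highest library for the later segments too. WT3 was the highest WT library in 11 of the 18, with list medians of 0.0994, -0.393 and 0.192 in WT1, WT2 and WT3, though not for Umod. Calb1 is in both this list and that of the 91 genes. The part of tubular RNA in the differences of the 33 genes was not tested.

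For the counts of called genes in the next lists, the background was 1.62% of all genes tested called higher and 1.76% called lower. Podocyte markers summed to 23710, 21880 and 22540 CPM in KO, against 25610, 25730 and 23120 CPM in WT, with Nphs1 the 1 of 12 that fell. Myeloid markers summed to 182, 185 and 204 CPM in KO, against 119, 88.7 and 109 CPM in WT, with no overlap, and 4 of 8 rose. Lyz2 passed in 5 of 6 fits with 1 library left out, and Tyrobp, Ctss and Spi1 in 0 (edgeR adjusted p 0.0511 to 0.149). Markers of tubular injury summed to 310, 535 and 276 CPM in KO, against 275, 258 and 237 CPM in WT. Of 9 injury genes tested 1 rose, the adhesion molecule Vcam1 (42.0, 60.7 and 45.3 CPM in KO, against 25.9, 16.2 and 15.6 CPM in WT, edgeR adjusted p = 0.0447), and its call was lost whichever library was left out (edgeR adjusted p 0.0531 to 0.179). Havcr1, the defining marker of injured proximal tubule, stayed at or under 0.140 CPM in every library. The median log2 fold change of the 9 injury genes was 0.71. All KO libraries lay above all WT libraries in 4 of them (Vcam1, Lcn2, Clu and Krt8), against 20.9% of all genes tested. They lay below in 1, Cdkn1a, against 8.96% of all genes. On TMM effective library sizes the groups of Krt8 overlapped, and the shares of all genes were 14.1% above and 14.8% below. Endothelial sums ran from 6346 to 6779 CPM in KO and from 6695 to 6976 CPM in WT, and mesangial and smooth muscle sums from 2496 to 3003 CPM in KO and from 2550 to 2821 CPM in WT. In these last 2 lists 0 genes passed, with 1 endothelial gene and 0 mesangial genes at an unadjusted edgeR p under 0.05, the same counts as called by DESeq2, and 0 by limma-voom. Of 4 parietal cell markers, Pax8 rose and Krt7 fell. With 1 library left out in turn, Pax8 passed in 1 of 6 fits and Krt7 in 0 (edgeR adjusted p 0.0511 to 0.121).

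**Figure D4:**
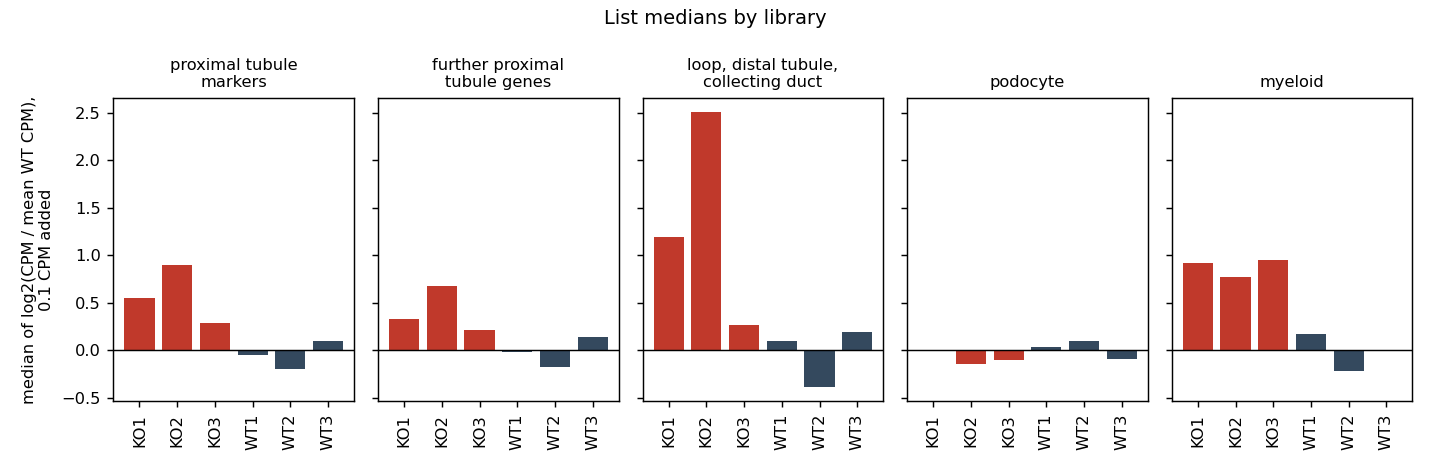
Median over each list of the log2 ratio of CPM to the mean CPM in WT, 0.1 CPM added to both (vertical, bars from 0), in the 3 KO and 3 WT libraries (horizontal) for the 33 markers, the 91 other proximal tubule genes, later tubule segments, podocyte and myeloid genes. KO2 is the highest bar in the 3 tubular lists, at 0.899 for the 33 markers and 2.51 for the later segments, while the 3 KO bars of the myeloid list lie close together.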

How the data were processed

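Polyadenylated RNA was sequenced in 3 KO and 3 WT libraries. Each deposited table lists, per exonic part, the raw read count, the covered bases, the part length and the covered fraction. Per the file headers the authors' parts follow Ensembl 67 on mouse NCBIM37. TopHat 1.4.1 is listed in the submitters' processing notes together with GRCh37, which is a human build and does not match. How reads were counted, and whether strand was used, is not given in the sources used here, so overlapping genes on opposite strands cannot be separated. The covered fraction deposited by the authors was not used for any result.

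Gene counts were sums over a gene's parts, so a read spanning several parts enters more than once. There were 368092 parts, and 31300 of 35981 single identifiers matched a symbol in the reference annotation, which was used only for names. Total counts were 186022084 to 255554573 per library. Replicates differed by more than counting noise (chi-square per gene 74.1 to 221), so none was treated as a duplicate.

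The gene test was that of edgeR 4.0.16, run in R 4.3.3 (TMM, filterByExpr defaults, quasi-likelihood test, no covariates, all 6 libraries) with Benjamini-Hochberg adjusted p under 0.05 over 19742 genes. Exon usage was tested with diffSpliceDGE. The scripts were tested on simulated counts. Alternatives were DESeq2 1.42.0, limma-voom (limma 3.58.1), RLE normalization, filters, non-overlapping parts, the longest part, a replicate block and leaving out each library. The members, the other lists (further proximal tubule, later tubule, podocyte, myeloid, endothelial, mesangial, parietal, injury, androgen-responsive and sex-linked genes) and the tests were chosen with earlier results of these data known.

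Values in every library were given for genes past the test and those that break from the order of the libraries, and for other members where they help. Of the further genes, those past the test, the 3 highest per kb and the 2 highest per kb of each role were named, apart from genes not reported here. WT3-high or WT3-low further genes, Umod, Vcam1, Havcr1, Myh11 and Acta2 were chosen after their values were seen.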

Additional observations from a re-analysis of the deposited data

How the results depend on the processing

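The median log2 fold change of the markers stayed above 0 under every alternative, from 0.36 without KO2 to 0.68 without WT3, and each library's median moved by less than the spread between replicates under another scaling, added count or way of counting and without each WT library. Of 445 gene values under 14 alternatives, 410 kept their direction and side of the threshold, 23 were no longer called, 9 became called and 3 changed sign. All 3 were of Slc7a13, at 0.32 with limma-voom, 0.26 with a replicate block and 2.10 without WT3, within a range of -0.99 to 2.10 with 1 library left out. The number of markers past the test was 9 of 32 with DESeq2, which called 2766 of all 19742 genes. It was 1 with limma-voom, for which no count over all genes is given, and 0 to 3 when 1 library was left out. Of the other 91 proximal tubule genes, 22 passed with DESeq2 and 1 on the longest part alone, and 0 to 5 passed with 1 library left out. Over all genes, 666 were called, against 2766 with DESeq2, 424 on the longest part alone and 31 to 254 with 1 library left out; the cause was not tested. Markers with all KO above all WT numbered 15 to 26 with 1 library left out, an alternative added after seeing the data, against 23.5% to 30.3% of all genes in that order under the same omissions. Of the calls, 47.9% were higher in KO, against 41.7% to 74.2% with 1 library left out.

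Deviations of libraries with the same number correlated at 0.107, -0.060 and 0.158 over 19742 genes, so the numbers were not taken to pair the libraries. With a replicate block 82 genes were called (62.2% higher), 1 marker (Slc13a3), 1 of the other proximal tubule genes and 0 markers for exon usage.

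The adjusted p-values of the 3 markers that rose lay close to the threshold, with 3 libraries a group. Slco1a1 had at most 5 counts in a library, so no difference between groups was detectable for it at this depth. For Slc7a13 the limit was the spread between libraries (SE 1.16 on the log2 scale).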

Other observations

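Kap, Slc7a13 and Slco1a1 are known to depend on androgen in mouse kidney, and a list of 9 such genes was read in the same fit. Of 8 tested, 0 passed (edgeR adjusted p under 0.05), with 2 at an unadjusted p under 0.05, 2 called by DESeq2 and 0 by limma-voom. The 2 at an unadjusted edgeR p under 0.05 were Cyp4b1 and Cyp7b1, both lower in KO. Outside the marker list, Cyp7b1 stood at 0.751, 0.926 and 0.651 CPM in KO, against 1.66, 1.24 and 1.25 CPM in WT (log2 fold change -0.89, edgeR adjusted p = 0.0743). Odc1 ran from 119 to 142 CPM in KO and from 104 to 128 CPM in WT. WT3 was the highest WT library in 4 of the 9 genes, Kap, Slc7a13, Acsm3 and Gusb, and not in Cyp7b1 or Odc1. Xist stood at 1312, 901 and 1373 CPM in KO, against 1113, 1172 and 1241 CPM in WT. Ddx3y, Kdm5d, Eif2s3y and Uty had 0 counts in all 6 libraries.

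Among members that lie close together the profiles were alike in some cases and not in others. Slc17a1 and Slc17a3 on chromosome 13 both had WT3 as the highest library, while Slc22a6 and Slc22a8 on chromosome 19 both had WT3 as the lowest library of its group. Slc22a30, near them on chromosome 19, had WT3 as the highest library of its group.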
